A study of Sorghum bicolor with 9 samples.

Results

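Transcript levels of 5 protease genes and 1 protease inhibitor gene were followed through 3 stages of sorghum anther development. They code for an aspartyl protease (Sobic.002G222700.v3.1), a papain-type cysteine protease (Sobic.002G315800.v3.1), a cystatin (Sobic.001G324800.v3.1), a serine carboxypeptidase (Sobic.002G121300.v3.1) and 2 subtilases (Sobic.001G002400.v3.1 and Sobic.001G529700.v3.1). These 6 genes, out of 34211 gene IDs in the expression table, were chosen by their annotation and by their stage values in that same table. Their stage courses are therefore a description, and none of them is tested below. Each of the 6 was the single gene ID of its record, although the cysteine protease shares its interval with a second record, and all were above 0 in every stage. Sequences of these genes were not analysed here.

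The plants were the Sorghum bicolor cultivar M35-1, grown in an open field, and every group shares this cultivar and setting. RNA came from whole anthers sorted by length. Stage A1 covered meiosis up to tetrads, A2 covered microspores and A3 held pollen. Each stage had 3 libraries (9 in all), and the labels do not say whether they came from separate plants. The unit is FPKM, fragments scaled by transcript length and by the mapped fragments of the library, and the authors combined the 3 libraries of a stage into 1 value per locus. No difference between stages given here has a replicate error, an interval or a test. The study's own Cuffdiff comparison of stages called each of the genes followed here differentially expressed, and its statistics are not given here. A whole anther holds wall layers, tapetum and the developing male cells, so fewer cells of a type and less RNA per cell cannot be told apart.

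Proteolysis accompanies several turnovers in the anther. The tapetum, the nurse layer around the microspores, is dismantled by programmed cell death while the pollen wall is being built, and in rice aspartyl proteases promote that death. Papain-type cysteine proteases act in vacuoles, in the endomembrane system and outside the cell, and cystatins are small proteins that bind and block them. Subtilases are mostly secreted serine proteases. Serine carboxypeptidases trim residues from the carboxyl end of proteins, although some members of that family in Arabidopsis work as acyltransferases instead.

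Of the 6 genes, 5 were highest with mature pollen and 1, the aspartyl protease, was highest with microspores. A difference was counted when it reached 2-fold after 0.5 FPKM had been added to each value, a step that understates the folds of low genes. Between A2 and A3, 5 genes were higher and 1 was lower, against 16.5% of 30776 loci higher and 12.6% lower. Between A1 and A3 the counts were again 5 and 1, against 17.4% higher and 12.6% lower. Between A1 and A2, 1 gene was higher and none of the other 5 reached 2-fold in either direction, against 2.91% of loci higher and 0.741% lower. Since these same values chose the genes, nothing can be read from the counts. Summed over the 6 genes, the FPKM were 83.6 at A1, 286 at A2 and 886 at A3, which is 0.0131%, 0.0425% and 0.109% of the FPKM of all loci in those stages.

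**Figure D1:**
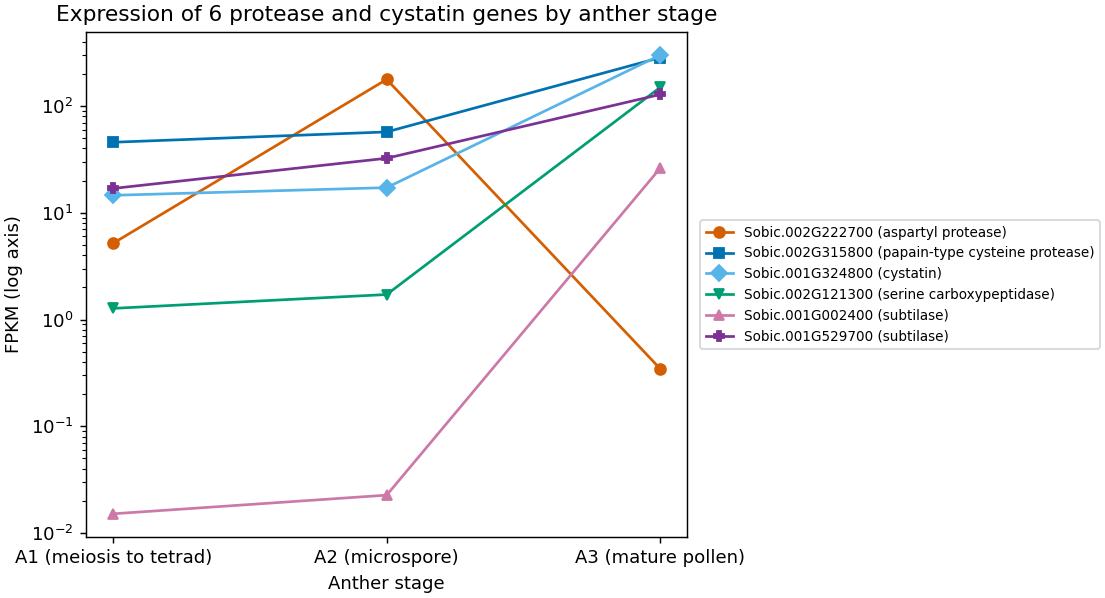
FPKM on a log axis (vertical) of the 6 genes at stages A1, A2 and A3 (horizontal), each point being the combined value of 3 libraries with no error available. The aspartyl protease peaks at 177 FPKM at A2, and the other 5 genes have their highest value at A3.

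The aspartyl protease gene Sobic.002G222700 lies on chromosome 2 from 61423109 to 61424604 (genome version v3.0.1 of Phytozome). Its nearest rice match is annotated as a precursor of nepenthesin, an aspartic protease first known from the fluid of pitcher plants. It stood at 5.18 FPKM at A1, 177 at A2 and 0.347 at A3. The level was thus high in microspore anthers alone, 31.3-fold above A1 and 210.2-fold above A3. The latter fold depends on the 0.5 FPKM added, since the A3 value is smaller than that, and log2 of A3 over A2 was -9.00 with none added and -7.05 with 1 FPKM. In A2 it ranked 498 among the 30776 loci, whereas it ranked 11584 at A1 and 20211 at A3. Only 18 loci, itself included, had a log2 difference of A2 over A1 as large as its 4.97, and 67 had one of A3 over A2 as low as its -7.72.

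Of 5 selected tapetum and exine genes, 4 also had their highest level with microspores. For 5 sorghum genes matching rice tapetum and exine genes (TDR, TIP2, NP1, CYP704B2 and CYP703A3), the sum was 1026 FPKM at A1, 3224 at A2 and 132 at A3, and all 5 were above 0 in every stage. Among them was the NP1 match Sobic.001G320300, an oxidoreductase gene of exine formation in rice, with 10.8, 293 and 0.179 FPKM from A1 to A3. The sum at A2 came mostly from the CYP704B2 match Sobic.001G491400 (1498 FPKM) and the CYP703A3 match Sobic.007G029900 (942 FPKM), both enzymes of exine formation. The TIP2 match Sobic.003G140100 was the exception, with its highest value at A1 and 173, 154 and 28.7 FPKM over the stages. These 5 are a selection, and the study lists further genes with such functions. It places several of them in a group high at both A1 and A2, together with the TIP2, CYP704B2 and CYP703A3 matches. The WDA1 match Sobic.001G222700 is in a group highest at A3. No course typical of the tapetum is therefore read from the 5 genes. The share of tapetum RNA in the course of the aspartyl protease was not tested.

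The neighbour of the aspartyl protease gene on its far side also had its highest value at A2. This was the galactosyltransferase gene Sobic.002G222800, a sugar-adding enzyme, with 0.433, 5.07 and 0.521 FPKM from A1 to A3. On the near side Sobic.002G222600 was listed at 0 at A1 and A2 and had 0.00620 FPKM at A3.

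The papain-type cysteine protease gene Sobic.002G315800 lies on chromosome 2 from 68916077 to 68922558. Its Arabidopsis match belongs to the cathepsin B-like proteases, a branch of the papain family found in vacuoles and lysosomes. It had 45.7 FPKM at A1, 57.1 at A2 and 284 at A3. It was the most abundant of the 6 genes at A1 and second to the aspartyl protease at A2. The A3 value was 4.93-fold above A2 and 6.15-fold above A1, while A1 and A2 differed by 1.25-fold. Its rank was 2455 at A1, 1886 at A2 and 302 at A3.

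A second record of the table, Sobic.002G315700, was given exactly the same chromosome interval as this protease. That record had 26.1, 25.3 and 57.2 FPKM from A1 to A3, so it too was higher at A3, by 2.23-fold over A2. The libraries were made with a strand-specific kit, but whether strand was used in the quantification is not given in the sources used here. Fragments shared between these overlapping genes make both values uncertain.

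The cystatin gene Sobic.001G324800, on chromosome 1 from 61201114 to 61201921, is annotated through its rice match as a precursor of cysteine proteinase inhibitor 8. It stood at 14.6 FPKM at A1, 17.2 at A2 and 299 at A3, or 16.9-fold higher at A3 than at A2 and 19.9-fold higher than at A1. With rank 274 it was the most abundant of the 6 genes at A3.

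Set beside the cysteine protease, which is possible because FPKM is a level per transcript length, the inhibitor was the lesser transcript in both early stages. Its FPKM was 0.319 times that of Sobic.002G315800 at A1 and 0.301 times at A2. In A3 the ratio was 1.05, so the values of these 2 genes were about equal in mature pollen anthers. Both values are uncertain, the first through the shared interval of the protease and the second through reads the cystatin may share with its neighbours. Summed at A3, the listed papain-type genes had 467 FPKM and the listed cystatins 311. Each of these lists holds 3 genes, taken only from differentially expressed genes of chromosomes 1 and 2, so the sums are not family totals. The highest other listed papain-type protease, Sobic.002G217200 (rice oryzain gamma chain), had 54.8, 61.7 and 181 FPKM from A1 to A3. Whether this cystatin binds either protease cannot be read from transcript levels.

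The cystatin gene is 1 of 3 annotated cystatin genes within 31.9 kb, which were named here after their values were seen. The adjacent Sobic.001G324700, whose start lies 2.84 kb before that of Sobic.001G324800, had 1.61, 1.46 and 8.30 FPKM from A1 to A3. The more distant Sobic.001G324500 was listed at 0 at A1 and A2 and had 3.27 FPKM at A3. All 3 thus had their highest value at A3, and Sobic.001G324800 gave 90.1% of their summed FPKM at A1, 92.2% at A2 and 96.3% at A3. Being neighbours with the same rice match, they may share reads, and how such reads were assigned is not given in the sources used here.

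Genes between and beside the cystatins did not all have this course. Sobic.001G324600, which lies among them and has no annotation in the sources used here, had 0.0466 FPKM at A1 and 0.0255 at A2 and was listed at 0 at A3. On the far side, Sobic.001G324900 went the other way with 13.5, 13.1 and 6.41 FPKM from A1 to A3.

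**Figure D2:**
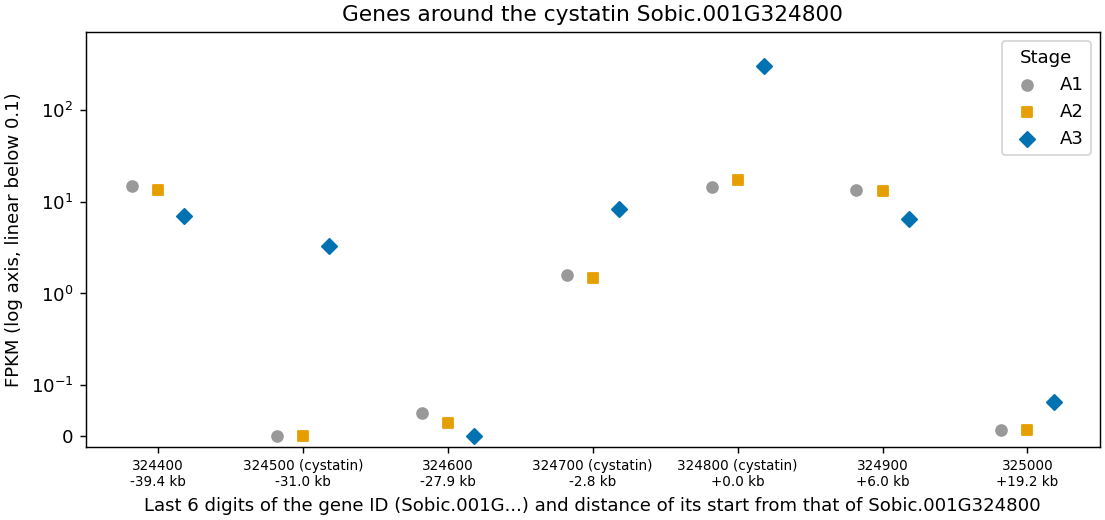
FPKM (vertical, log axis that is linear below 0.1) at A1, A2 and A3 of the 7 named loci around the cystatin gene Sobic.001G324800, ordered along chromosome 1 with the distance of each start in kb. The 3 cystatin genes have their highest point at A3, at 3.27, 8.30 and 299 FPKM.

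The serine carboxypeptidase gene Sobic.002G121300 lies on chromosome 2 from 15956441 to 15965228. It matches Arabidopsis serine carboxypeptidase-like 19, which in that species is a sinapoyl-transferring enzyme of the seed rather than a peptidase, and rice OsSCP56. It stood at 1.27 FPKM at A1, 1.71 at A2 and 149 at A3. Both early values were low and close to each other, with a 1.25-fold difference. The A3 value was 67.6-fold above A2 and 84.5-fold above A1, the largest folds over the early stages among the 6 genes at a pseudocount of 0.5 FPKM. That order depends on the pseudocount. With 0.1 FPKM added, log2 of A3 over A1 was 6.77 for Sobic.002G121300 and 7.83 for the subtilase Sobic.001G002400. The rank of Sobic.002G121300 went from 16071 at A1, near the middle of all loci, to 710 at A3.

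The 2 subtilase genes differed from each other in level and in course. Sobic.001G529700, on chromosome 1 from 79364957 to 79370003, matches Arabidopsis SDD1, a subtilase that sets stomatal density. It had 16.9 FPKM at A1, 32.4 at A2 and 128 at A3. This was a stepwise course, with A2 1.89-fold above A1, just under the 2-fold limit, and A3 3.91-fold above A2 and 7.40-fold above A1. No other gene of the 6 with its highest value at A3 had so large a difference between A1 and A2.

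Sobic.001G002400, on chromosome 1 from 216906 to 219739, matches Arabidopsis AIR3, a subtilase induced by auxin in roots, and rice OsSub55. It was nearly absent early, with 0.0151 FPKM at A1 and 0.0226 at A2, and stood at 26.1 FPKM at A3. Its A3 value was 50.8-fold above A2 with 0.5 FPKM added to each. That fold is set largely by the added amount, because both early values are far below it, and it came to 7.74 on the log2 scale with 0.1 FPKM added in place of 5.67. The level of Sobic.001G529700 was 1115 times that of Sobic.001G002400 at A1 and 1430 times at A2, but 4.91 times at A3.

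Read counts were not analysed here, yet the lowest values give a rough scale for these 2 early values. Among unnamed loci under 1.5 kb, the smallest FPKM above 0 multiplied by locus length in kb was 0.00646 at A1, 0.00615 at A2 and 0.0107 at A3, taken here as roughly what 1 fragment gives. On that scale Sobic.001G002400 came to 6.65 such units at A1, 10.4 at A2 and 6928 at A3. With so few units and no replicate spread, no difference between A1 and A2 is read for this gene. The next lowest value among the 6 genes, the aspartyl protease at A3, came to 48.6 units, and the lowest of all the others came to 1200.1. Introns count in the locus length used here, so the numbers of spliced genes are overestimates.

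**Figure D3:**
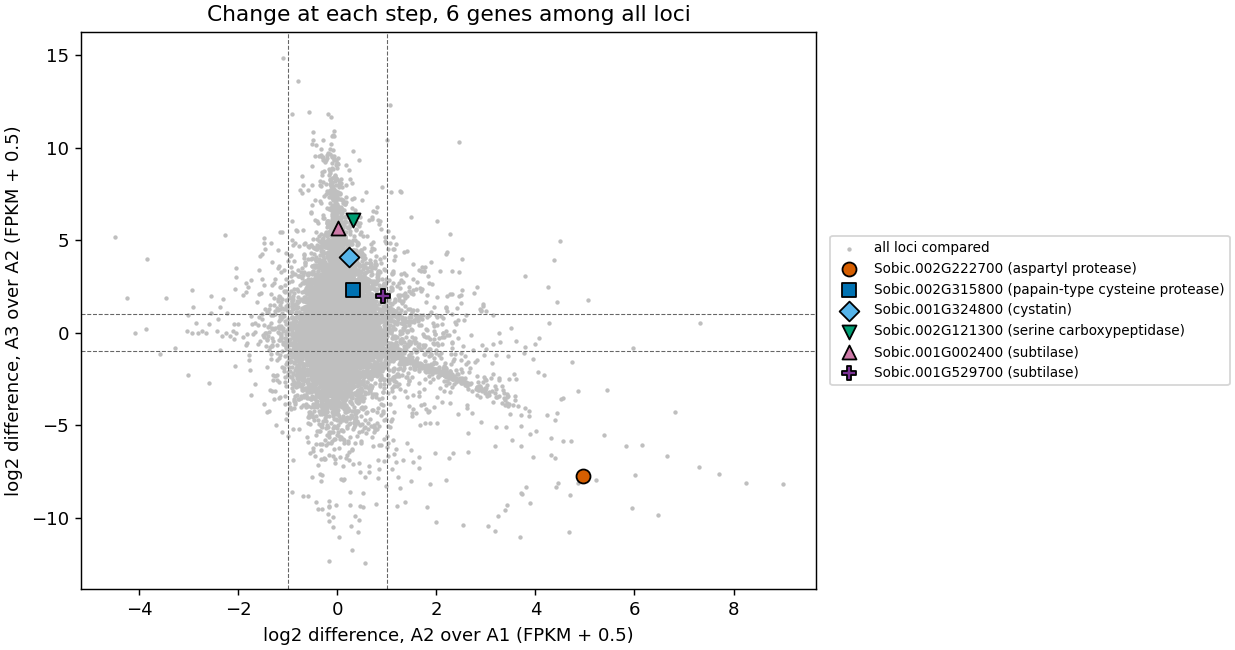
Log2 difference of A2 over A1 (horizontal) against A3 over A2 (vertical), both after adding 0.5 FPKM, for 30776 loci (grey) and the 6 genes (coloured), with dashed lines at 2-fold. The aspartyl protease lies at 4.97 and -7.72, and the other 5 genes lie between 0.02 and 0.92 horizontally and between 1.97 and 6.08 vertically.

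Other transcripts followed these courses closely. Likeness was measured as the Euclidean distance between the 3 log2 stage values, and the nearest 2 loci were taken for each gene. For the cystatin they were Sobic.001G449000, matching Arabidopsis heptahelical protein 4, at 13.6, 17.3 and 307 FPKM from A1 to A3 (distance 0.10), and the 3-oxoacyl synthase gene Sobic.001G344400 of fatty acid synthesis at 14.3, 14.2 and 293 FPKM (0.27). For the stepwise subtilase they were Sobic.008G057500 at 20.0, 33.6 and 129 FPKM (0.24) and Sobic.001G070500, matching photosystem I subunit F, at 21.7, 33.9 and 128 FPKM (0.36). These loci were chosen for likeness, and 3 values per locus carry no test.

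The number of loci within a distance of 1 depends on the 0.5 FPKM added, which draws all loci near 0 together, so the genes are not ranked by it. It was 231 for the subtilase Sobic.001G002400, 77 for Sobic.001G529700, 47 for the cysteine protease, 22 for the cystatin, 17 for the carboxypeptidase and 2 for the aspartyl protease. Those 2 were Sobic.003G146700, with 8.58, 198 and 0.206 FPKM from A1 to A3, and Sobic.001G530300, with 8.10, 183 and 0.0687 FPKM. Both were highest with microspores, as the aspartyl protease was. For the carboxypeptidase the nearest loci were Sobic.009G240500 (1.41, 1.86 and 147 FPKM) and Sobic.002G419600 (1.23, 1.34 and 163 FPKM).

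The cysteine protease had Sobic.004G313100 (49.8, 59.2 and 256 FPKM) and the joint locus of Sobic.004G232700 and Sobic.004G232800 (57.8, 55.4 and 287 FPKM) nearest to it. The subtilase Sobic.001G002400 had Sobic.007G167400 (0.0182, 0.0184 and 25.4 FPKM) and Sobic.009G014700 (0.0337, 0.0214 and 25.8 FPKM). None of these 4 loci has an annotation in the sources used here.

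The wider protease families were taken from the annotation of 1594 genes of chromosomes 1 and 2, which the study had called differentially expressed in these same samples. That selection had to favour genes with stage differences, so the counts are not independent evidence of any direction. The 5 lists together held 24 genes, the 6 above and 18 others. Of the 18 others, 12 were at least 2-fold higher at A3 than at A2 and 5 were lower, and 4 were higher and 0 lower at A2 than at A1. Of the 1594 genes, 8.28% were higher and 1.63% lower at A2 than at A1, against 2.91% and 0.741% of all loci. The median log2 difference of A3 over A2 was 1.57 over these 18 and 1.25 over all 1594, of which 53.6% were higher and 39.3% lower. It was 0.01 over all 30776 loci.

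The listed aspartyl proteases were divided between the microspore and the pollen stage. Of 5 listed genes, 3 were at least 2-fold higher at A2 than at A1 and lower at A3 than at A2, and the other 2 were higher at A3 than at A2. The share higher at A2 was 8.28% of the 1594 genes from which these 5 come. For A3 over A2, 53.6% of the 1594 were higher and 39.3% lower. The 3 include Sobic.002G222700, which was chosen with its A2 value known, so the count is not read against these shares. With Sobic.002G222700 the first set held Sobic.001G478100, matching rice OsAP25, an aspartic protease of tapetum degeneration, with 4.31, 17.2 and 0.103 FPKM from A1 to A3. The study places Sobic.001G478100 in a group high at both A1 and A2. The first set also held Sobic.002G325800, with 0.346, 10.6 and 0.0154 FPKM. The gene Sobic.002G222700 thus gave 177 of the 215 FPKM of the list at A2. The second set held Sobic.002G281700 (10.2, 7.93 and 55.9 FPKM) and Sobic.002G367900 (2.46, 2.04 and 9.05 FPKM).

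The listed cysteine proteases and serine carboxypeptidases were all highest with mature pollen. Of 3 papain-type genes, 3 were at least 2-fold higher at A3 than at A2, including Sobic.002G130700, matching Arabidopsis senescence-associated gene 12, with 0.0474, 0.156 and 3.01 FPKM from A1 to A3. Of 5 carboxypeptidase genes, 5 were likewise higher. Of the 1594 differentially expressed genes from which both lists come, 53.6% were higher. The counts include Sobic.002G315800 and Sobic.002G121300, which were chosen with their A3 values known, so no trait of either family is read from them. Sobic.001G311900 (rice OsSCP47) had 0.00522 FPKM at A1, was listed at 0 at A2 and had 17.8 FPKM at A3. Sobic.001G280200 (rice OsSCP44) was higher at each step with 0.168, 1.13 and 14.4 FPKM, and Sobic.001G196600, a lysosomal Pro-X type enzyme of another family, had 2.58, 1.92 and 6.60 FPKM. Sobic.002G121300 gave 149 of the 191 FPKM of the list at A3.

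The listed subtilases went both ways, as did the 1594 differentially expressed genes from which they come. Of 8 listed genes, 4 were at least 2-fold higher at A3 than at A2 and 3 were lower, or 50% and 37.5%. Over the 1594 genes the shares were 53.6% and 39.3%. The 8 include Sobic.001G002400 and Sobic.001G529700, which were chosen with their stage values known, so no trait of the family is read from the counts. The most abundant at A1 was Sobic.001G081100 (rice OsSub31), with 37.5, 46.7 and 6.05 FPKM from A1 to A3. Like Sobic.001G529700 it was somewhat higher at A2 than at A1, but its step from A2 to A3 went the other way. The most abundant at A2 was Sobic.001G170700 (rice OsSub30), with 2.22, 53.5 and 0.0610 FPKM. It had a microspore peak like that of the aspartyl protease, 19.8-fold above A1 and 96.2-fold above A3. Sobic.002G216000 was at 0.0765, 0.0627 and 0.601 FPKM, values so near the added 0.5 FPKM that its count as under 2-fold rests on that amount.

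**Figure D4:**
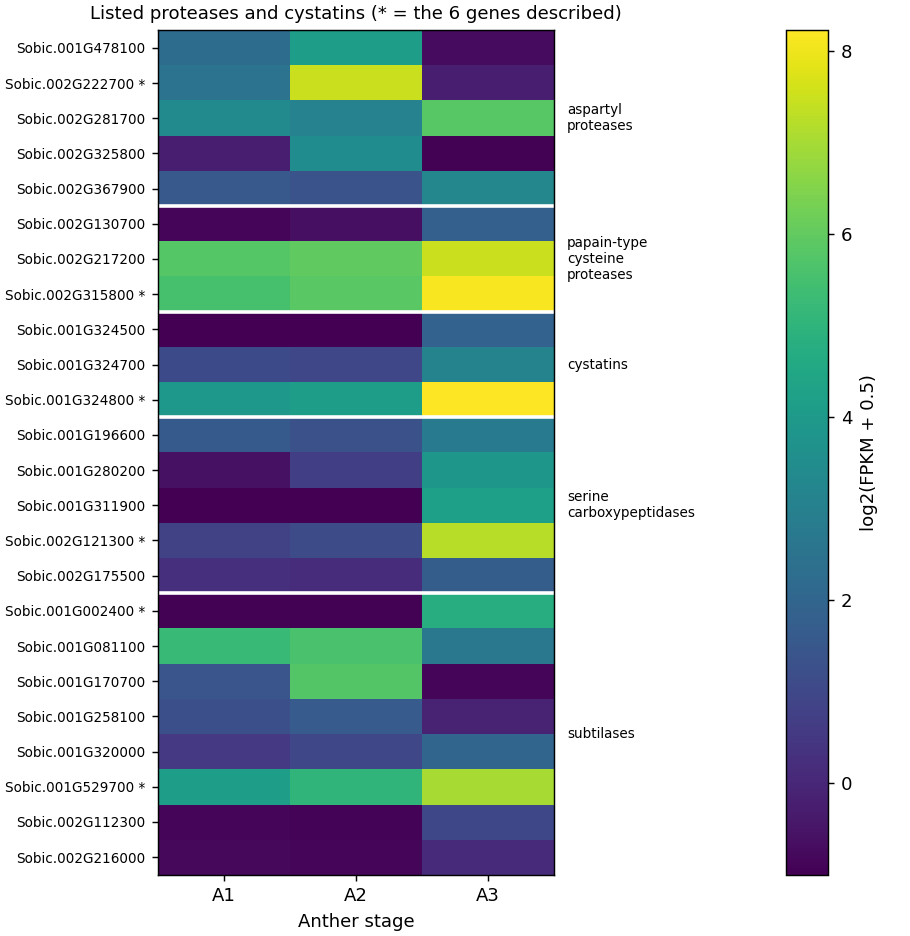
Heat map of log2(FPKM + 0.5) (colour) at stages A1, A2 and A3 (columns) for the 24 listed protease and cystatin genes (rows, grouped by family, the 6 genes described marked with an asterisk). A3 is the brightest column for every papain-type, cystatin and carboxypeptidase gene, and 3 aspartyl proteases and 3 subtilases, Sobic.001G170700 among them, are brightest at A2.

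A single serine protease inhibitor was listed, the Bowman-Birk trypsin inhibitor gene Sobic.001G032100, with 15.7 FPKM at A1, 33.8 at A2 and 78.5 at A3. Like the subtilase Sobic.001G529700 it was higher at each step, 2.12-fold from A1 to A2 and 2.30-fold from A2 to A3. No metacaspase or vacuolar-processing enzyme was on the list, which covers only differentially expressed genes of chromosomes 1 and 2. The other chromosomes were not searched for them. The ubiquitin classes of the same annotation, tallied after their values were seen, divided evenly, with 19 of 44 loci higher and 20 lower at A3 than at A2, and the AAA type class had 4 of 8 higher and 4 lower. In that class 4 of 8 were higher and 0 lower at A2 than at A1, and 4 were higher and 1 lower at A3 than at A1. Of the 1594 genes from which these classes come, 53.6% were higher and 39.3% lower at A3 than at A2. The shares were 8.28% and 1.63% at A2 over A1, and 55.5% and 38.2% at A3 over A1. No trait of a class is read from these counts.

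The selected markers of cell types differed in how far they changed between stages. Of 4 pollen genes (matching rice OSIPA, a second OSIPA copy, OsPLIM2b and OsPCBP), all 4 were above 24 FPKM at A3 with a sum of 214 FPKM. Their sum was 0.124 FPKM at A1 and 0.0793 at A2, where 3 of the 4 were listed at 0. For 3 meiosis genes (DMC1, ZEP1 and HEI10) the sum was 123 FPKM at A1, 102 at A2 and 44.0 at A3. From A1 to A2 the change was small for ZEP1 (58.5 to 47.7 FPKM) and HEI10 (49.2 to 45.9), and larger for DMC1 (15.7 to 8.05). The study also lists genes of meiotic function in a group highest at A3, among them the MEL2 match Sobic.008G138200, which were not taken here. For 3 leaf-type chlorophyll a-b binding protein genes the sum was 103, 101 and 19.8 FPKM. The meiosis, tapetum and pollen genes were ones that the study named from these samples, so they describe the stages and are no separate check. The leaf-type genes were taken from the genes that the study called differentially expressed, so they are no separate check either. Another photosynthesis gene, Sobic.001G070500 matching photosystem I subunit F, went the other way with 21.7, 33.9 and 128 FPKM from A1 to A3. The part of pollen RNA in the A3 values of the 5 genes was not tested.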

How the data were processed

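Per the labels, total RNA of 9 anther libraries was sequenced with a stranded kit. Reads were trimmed and freed of rRNA (Bowtie2 2.2.9), then mapped by STAR to the sorghum genome of Phytozome and assembled with StringTie 1.3.3b. The authors used Cuffdiff for their comparisons and deposited FPKM, 1 combined value for each stage of a locus. Which tool wrote that table is not given in the sources used here. These values therefore carry no depth per library and no replicate spread, and the planned fits over replicates were not run. The study does report read totals and a high correlation among the replicates of a stage over the expressed genes. Neither gives a spread for a single gene.

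Values were processed with python 3.11.15, numpy 2.4.6 and pandas 2.3.3. Log2 values and folds used a pseudocount of 0.5 FPKM over 30776 of 40082 loci, namely those carrying a gene ID and not at 0 throughout. Fold counting was tested on simulated data. Starts are the deposited ones plus 1 base.

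The 6 genes and all lists were chosen with earlier results of these data known. Families were to come from RefSeq product names. The RefSeq table used here held none and matched 0 of the 6 IDs, so the same search terms were applied to the rice, Arabidopsis and pathway annotation of 1594 differentially expressed genes on chromosome 1 (963) and chromosome 2 (631). Named were the 6 genes, the 2 highest loci per family and stage, the 2 nearest courses per gene and neighbouring loci. Other genes were added after their values were seen. Alternatives were pseudocounts of 0.1 and 1 FPKM, median-of-ratios scaling, quantile normalization, a mean of at least 1 FPKM, single-ID loci and, added after the data were seen, no pseudocount.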

Additional observations from a re-analysis of the deposited data

How the results depend on the processing

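The 13 stage differences of at least 2-fold among the 6 genes kept their direction and stayed past 2-fold under pseudocounts of 0.1 and 1 FPKM, median-of-ratios scaling, quantile normalization and no pseudocount, and the other 5 stayed under 2-fold without changing sign. Sizes moved by over 1.5 times only for genes with a value under 0.5 FPKM. For the aspartyl protease Sobic.002G222700, log2 of A3 over A2 was -8.63 and of A3 over A1 -3.56 with 0.1 FPKM added, -9.00 and -3.90 with none added, and A3 over A2 was -7.05 with 1 FPKM added. For the subtilase Sobic.001G002400, log2 of A3 over A2 and of A3 over A1 were 7.74 and 7.83 with 0.1 FPKM added, 10.17 and 10.75 with none, and 4.73 and 4.74 with 1 FPKM. Over all loci, 1419 were higher and 548 lower in A2 than in A1 with 0.1 FPKM added, in place of 896 and 228. Quantile normalization shifted the median log2 of A3 over A2 to -0.18 and of A3 over A1 to -0.20 over loci with a mean of at least 1 FPKM. It also turned the balance over all loci, from 5067 higher and 3868 lower to 4436 and 4667 for A3 over A2, and from 5341 and 3877 to 4531 and 4918 for A3 over A1. No paired analysis was possible because the table holds 1 combined value per stage, and for the same reason no library could be left out.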
